A study of Mus musculus with 6 samples.

Results

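The transcriptome of wounded mouse cornea was set against that of unwounded cornea over every gene that reached 1 TPM in 2 or more of the 4 libraries compared. TPM is a transcript's share of its library after correction for length, scaled so that each library has the same sum, and it keeps no sequencing depth. The rule kept 14412 of the 54446 gene rows of the table. Just inside it lay Apold1, whose second highest value was 1.0 TPM, and just outside it Thsd1, at 0.99 TPM. All mice were wild type, of strain C57BL/6 and 6 weeks old, and no group carried an engineered allele. The unwounded group had 2 libraries and the wounded group 2. In the wounded eyes surgery had taken away a part of the limbus, where the stem cells of the corneal epithelium lie, with the epithelium and some of the stroma. A further group of 2 libraries, wounded and given RNase III under the conjunctiva, entered the fit as a measure of spread. The labels do not say whether a library came from 1 animal or a pool, how long after surgery or at what time of day corneas were taken, or whether unwounded eyes had a sham procedure. The p-values therefore measure the spread between these libraries, which may be technical.

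The cornea is the clear front of the eye. Its surface is a stratified epithelium sealed by tight junctions, fed by diffusion and rich in enzymes that detoxify aldehydes and absorb ultraviolet light; beneath it lie a collagen stroma made by keratocytes and a single-layered endothelium. After a wound, epithelial cells at the edge flatten, loosen their contacts, migrate and later divide, while leukocytes enter. A resting surface epithelium is known for its junctions, its apical and basal polarity and its metabolism of lipids, retinoids and foreign compounds.

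Defining markers of cornea were present in all 4 libraries. Krt12, the cornea-specific keratin, had 19636 and 18778 TPM in unwounded and 11217 and 17088 TPM in wounded corneas, and the keratocyte genes Lum and Dcn were expressed throughout. The lowest value of the endothelial gene Slc4a11 was 39.9 TPM. Other tissue was sampled unevenly. Transcripts of the 17 tested pigment cell, iris and retina markers summed to 1734 and 5304 TPM in unwounded and 517.2 and 1354 TPM in wounded corneas. Those of 9 red blood cell markers, 7 of them tested, summed to 2424 and 6845 against 964.5 and 2271 TPM. The 18 neutrophil markers, 14 of them tested, summed to 151.6 and 99.5 TPM in unwounded corneas, 9836 TPM in wounded replicate 1 and 669.4 TPM in wounded replicate 2. Lens markers, 5 tested, reached 302 TPM in wounded replicate 2, with Mip at 0.13 TPM or less in each library. What part these shares play in the changes below was not tested. In bulk tissue fewer cells of a type and less RNA per cell cannot be told apart. Calls also rested on single libraries. With 1 library left out, its group keeps 1 sample, which is then assumed to vary like the others. Without unwounded replicate 1, 23 genes were higher and 3 lower. Leaving out unwounded replicate 2 gave 24 and 4, and leaving out wounded replicate 1 gave 60 and 37. Without wounded replicate 2 more calls were made, 639 higher and 1177 lower. Each of the 1538 lower and 953 higher genes kept its sign with any 1 of the 6 libraries left out. That was largely fixed in advance, since the genes were picked by passing the threshold. Leaving out an RNase III library cannot alter the difference at all.

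Falling genes outnumbered rising ones. Of the 14412 genes tested, 1538 (10.7%) were lower and 953 (6.61%) higher in wounded corneas (limma on log2(TPM + 1), Benjamini-Hochberg adjusted p under 0.05; every log2 value, rise and fall below is on that scale, where low genes seem to change less than they do), and 5402 had an unadjusted p under 0.05. Part of that balance was a shift of the whole distribution. The median gene stood at -0.27 on the log2 scale, so a list is read against that value. After median-of-ratios scaling, which sets the bulk of genes equal between libraries, the median was -0.02, and 1093 genes (7.58%) were lower and 1618 (11.2%) higher. Lower genes then made up 40.3% of the calls in place of 61.7%. All 1093 were also lower without scaling, 946 genes (6.56%) were higher both ways, and no gene changed from one direction to the other. Rises were the larger changes: 342 genes rose at least 4-fold on the TPM + 1 scale and 230 fell at least 4-fold, while 79 rose and 9 fell at least 16-fold. The genes that fell made up 15.6% and 15.3% of all TPM in unwounded corneas and 4.21% and 6.36% in wounded ones. Those that rose went from 6.17% and 5.93% to 22.95% and 16.4%.

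No gene with at least 20 TPM in both unwounded libraries was under 1 TPM in both wounded libraries. Spink7, a protease inhibitor gene with 43.95 and 14.2 TPM in unwounded corneas, was listed at 0 in both wounded ones. Calls of a fall were more frequent at higher levels, up to 500 TPM. In unwounded cornea 3.99% of genes at 1 to 5 TPM were called lower and 9.23% at 5 to 20 TPM. The share was 17.0% at 20 to 100 TPM and 17.8% at 100 to 500 TPM. Among the 248 genes above 500 TPM the share was 9.68%. Median changes did not follow the calls, at -0.33, -0.36, -0.26 and -0.14 in the classes from 1 to 500 TPM. None of the genes under 1 TPM in unwounded cornea was called lower and 37.8% were called higher. On this scale they have little room to fall, and a gene under 1 TPM in both unwounded libraries had to reach it in both wounded ones. In all 598 genes passed only through the unwounded libraries, 126 of them called, and 327 only through the wounded ones, 163 of them called. Such genes had to differ between groups. Spink7 passed only through the unwounded libraries, and among genes named below so did Cyp4a12a, Egf, Il17c, Naip1, Pigr, Ppara, Upk3b, Wnt2b and Zfp973. B3galt5, Csn3, Cxcl3, Dynap, Fosl1, Ppbp, Saa3, Slc15a3 and Wincr1 passed only through the wounded ones. Wounded replicate 1 moved further than replicate 2. Of the lower genes 86.7% had less TPM in replicate 1, against 64.9% of all genes, and their median change was -1.59 in replicate 1 and -1.20 in replicate 2. Replicate 1 is also the library with the high neutrophil sum; the link was not tested.

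**Figure D1:**
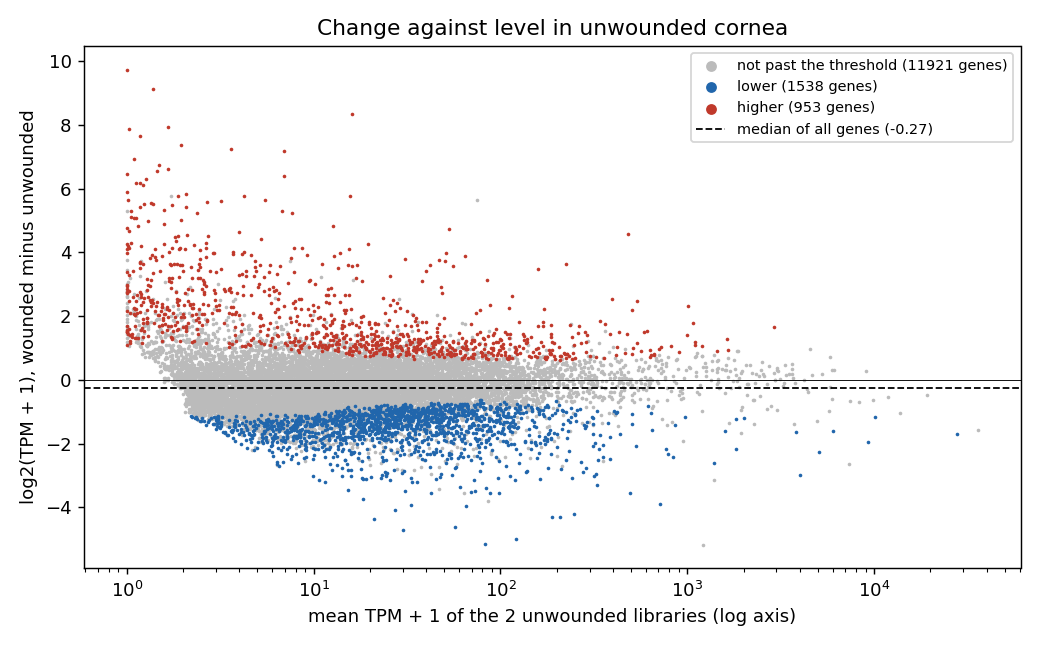
Change of each tested gene (vertical axis, difference of mean log2(TPM + 1), wounded minus unwounded) against its mean TPM + 1 in the 2 unwounded libraries (log axis). Blue points are the 1538 genes called lower, red the 953 called higher, and the dashed line is the median of all genes, -0.27; blue points are most frequent between 20 and 500 TPM.

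The 10 largest falls included those of the lipoxygenase Alox12e and the acyl-CoA synthetase Acsm1. The 20 falls ranked 11 to 30 lay between -3.75 and -3.11 on the log2 scale. They were chosen as falls without overlap between groups, 19 of them had less TPM in wounded replicate 1 than in replicate 2, and 19 were also lower after scaling. Sorbs2, an adaptor protein of the actin cytoskeleton, fell from 35.8 and 34.1 to 1.73 and 4.51 TPM (log2 -3.21, SE 0.58, limma adjusted p = 0.0212), with the unwounded pair close together. Rab17, a GTPase of transcytosis in polarised epithelia (ENSMUSG00000026304, chromosome 1, 90958133 to 90969661, minus strand, GRCm38), went from 29.4 and 30.1 to 1.52 and 2.0 TPM, a fall of 3.48 (SE 0.40, limma adjusted p = 0.00943). Neither wounded library came near the unwounded ones.

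Mgat3, which adds the bisecting residue of N-glycans, had 73.2 and 71.6 TPM in unwounded and 2.46 and 11.7 TPM in wounded corneas (log2 -3.47). St8sia6, a sialyltransferase, went from 36.4 and 28.98 to 0.87 and 6.15 TPM (log2 -3.19), with the wounded replicates further apart than the unwounded ones. Lce3a, of the late cornified envelope, was the one gene of the 20 with more TPM in wounded replicate 1, 10.6 and 4.13 TPM in replicates 1 and 2 against 134 and 60.7 TPM in unwounded corneas. The uroplakin gene Upk3b, a relative of the proteins of bladder apical plaques, went from 9.16 and 11.8 to 0.09 and 0.40 TPM. Naip1, a sensor of bacterial needle proteins in the inflammasome, fell from 16.6 and 18.4 to 0.03 and 0.83 TPM, though near-identical Naip genes lie beside it and their reads may have been split. Transport genes in this range were Slc34a2, a phosphate carrier, Spns2, the exporter of sphingosine-1-phosphate, and Clic5, which links membranes to the cortical cytoskeleton. Of these Spns2 was the most abundant, at 165 and 157 TPM in unwounded and 11.4 and 27.7 TPM in wounded corneas. Ripply3, a transcriptional corepressor, had 89.5 and 84.3 and 2.48 and 15.4 TPM, and it was the gene whose call was lost on scaling (adjusted p = 0.0624).

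**Figure D2:**
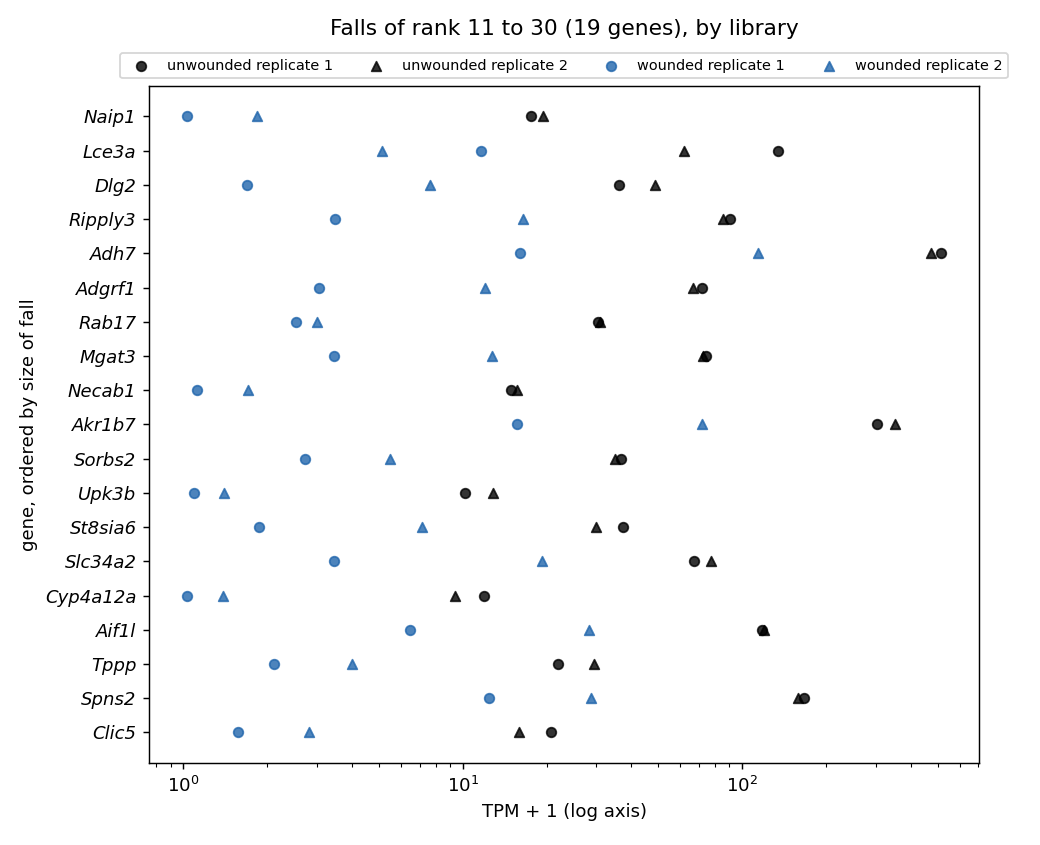
TPM + 1 in each library (log axis) for 19 of the 20 genes ranked 11 to 30 by size of fall. Black symbols are unwounded and blue symbols wounded replicates; in 18 of the 19 genes shown the blue circle of wounded replicate 1 lies left of the blue triangle of replicate 2.

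In amount of transcript the loss was carried by other genes. Gsto1, a glutathione transferase that also reduces dehydroascorbate (ENSMUSG00000025068, chromosome 19, 47854970 to 47864790, plus strand), was the most abundant gene of unwounded replicate 1. It had 29925 and 25714 TPM in unwounded and 7314 and 10107 TPM in wounded corneas, a fall of 1.69 (SE 0.36, limma adjusted p = 0.0302). Lypd2, of the Ly6 family, went from 10045 and 8539 to 1566 and 3705 TPM, and Psca, a Ly6 protein of surface epithelia, from 4483 and 3555 to 208 and 1222 TPM. Wounded replicate 2 kept more of each than replicate 1. Emp1, an epithelial membrane protein, had 5930.5 and 6068 and 1718 and 2268 TPM, and Dapl1, a gene of early epithelial differentiation, 2017 and 1606 and 236 and 672 TPM. Hopx, a homeodomain protein without DNA binding of its own, went from 822 and 751 to 83.2 and 285 TPM. Of the 20 most abundant genes called lower, 8 were also lower after scaling, and Gsto1, Lypd2, Emp1, Psca, Dapl1 and Hopx were not among them (adjusted p between 0.0514 and 0.115). Cbr2, a carbonyl reductase, and Glul, glutamine synthetase, were; Cbr2 had 647 and 645 TPM in unwounded and 218 and 212 TPM in wounded corneas.

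Genes of the differentiated corneal surface fell more often than they rose. Of 20 tested, 8 were lower and 1 higher (40.0% lower against 10.7% of all genes), and 4 were lower and 3 higher after scaling. The median was -0.74, or -0.32 without wounded replicate 1 and -0.98 without wounded replicate 2. Pax6, the master regulator of eye identity that corneal cells keep through life, had 340.3 and 361 TPM in unwounded and 51.1 and 139.7 TPM in wounded corneas. It fell by 2.04 (SE 0.42, limma adjusted p = 0.0288), and both wounded libraries lay far below the unwounded pair. Ehf, an epithelial ETS factor, went from 204 and 181 to 46.4 and 77.3 TPM (log2 -1.66), and Upk1b from 834 and 835 to 99.4 and 245 TPM (log2 -2.41). Krt12 itself did not pass (log2 -0.47, SE 0.38, limma adjusted p = 0.391), nor did Aldh3a1, the abundant corneal aldehyde dehydrogenase, at 10130.5 and 9583 and 4971 and 8101 TPM. The member that rose as deposited was Sbsn, suprabasin of cornifying layers, from 3.57 and 4.77 to 107 and 35.7 TPM.

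Adhesion and polarity genes followed. Of 38 tight, gap and desmosomal junction genes 12 were lower and 4 higher (31.6% and 10.5%), with a median of -0.42; after scaling 6 were lower and 6 higher. Cldn23, a claudin, had 178 and 178 TPM in unwounded and 10.4 and 58.8 TPM in wounded corneas, with the wounded replicates far apart but both below the unwounded pair. The scaffold gene Tjp1 (ZO-1) went from 66.6 and 66.8 to 23.1 and 24.2 TPM, a fall of 1.46 (SE 0.18, limma adjusted p = 0.00996), with both pairs tight. Tjp3 went from 163 and 146 to 25.2 and 53.8 TPM and Ocln, occludin, from 40.1 and 36.01 to 9.68 and 16.2 TPM, the latter not past the threshold after scaling (adjusted p = 0.0529). The desmoglein gene Dsg1a fell by 2.51, with close relatives in its cluster. Among the genes that rose were Gjb5, Pkp3 and Cldn4; Cldn4, a claudin of tight epithelia, went from 249.98 and 270.2 to 824 and 626 TPM (log2 1.46). Cldn23 and Cldn4, of one family, thus moved in opposite directions.

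Of 18 polarity genes, which set the apical and basal domains of an epithelial cell, 7 were lower and 1 higher, with a median of -0.75. After scaling 6 of the 7 were lower. These are long genes, with a median exonic length of 6385 bases against 4380 over all tested protein-coding genes, and the part of length was not tested. Prkci, the atypical protein kinase C of the Par complex (chromosome 3, 30995747 to 31052959, plus strand), had 105 and 112 TPM in unwounded and 37.04 and 39.1 TPM in wounded corneas, a fall of 1.48 (SE 0.19, limma adjusted p = 0.0115). Its partner Pard3 went from 57.1 and 58.1 to 17.02 and 31.9 TPM. Magi3, a junctional scaffold, had 28.2 and 30.6 and 3.45 and 7.16 TPM (log2 -2.34). Crb3, the Crumbs protein of the apical membrane, was the one member that rose, by 0.69 (limma adjusted p = 0.0415).

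**Figure D3:**
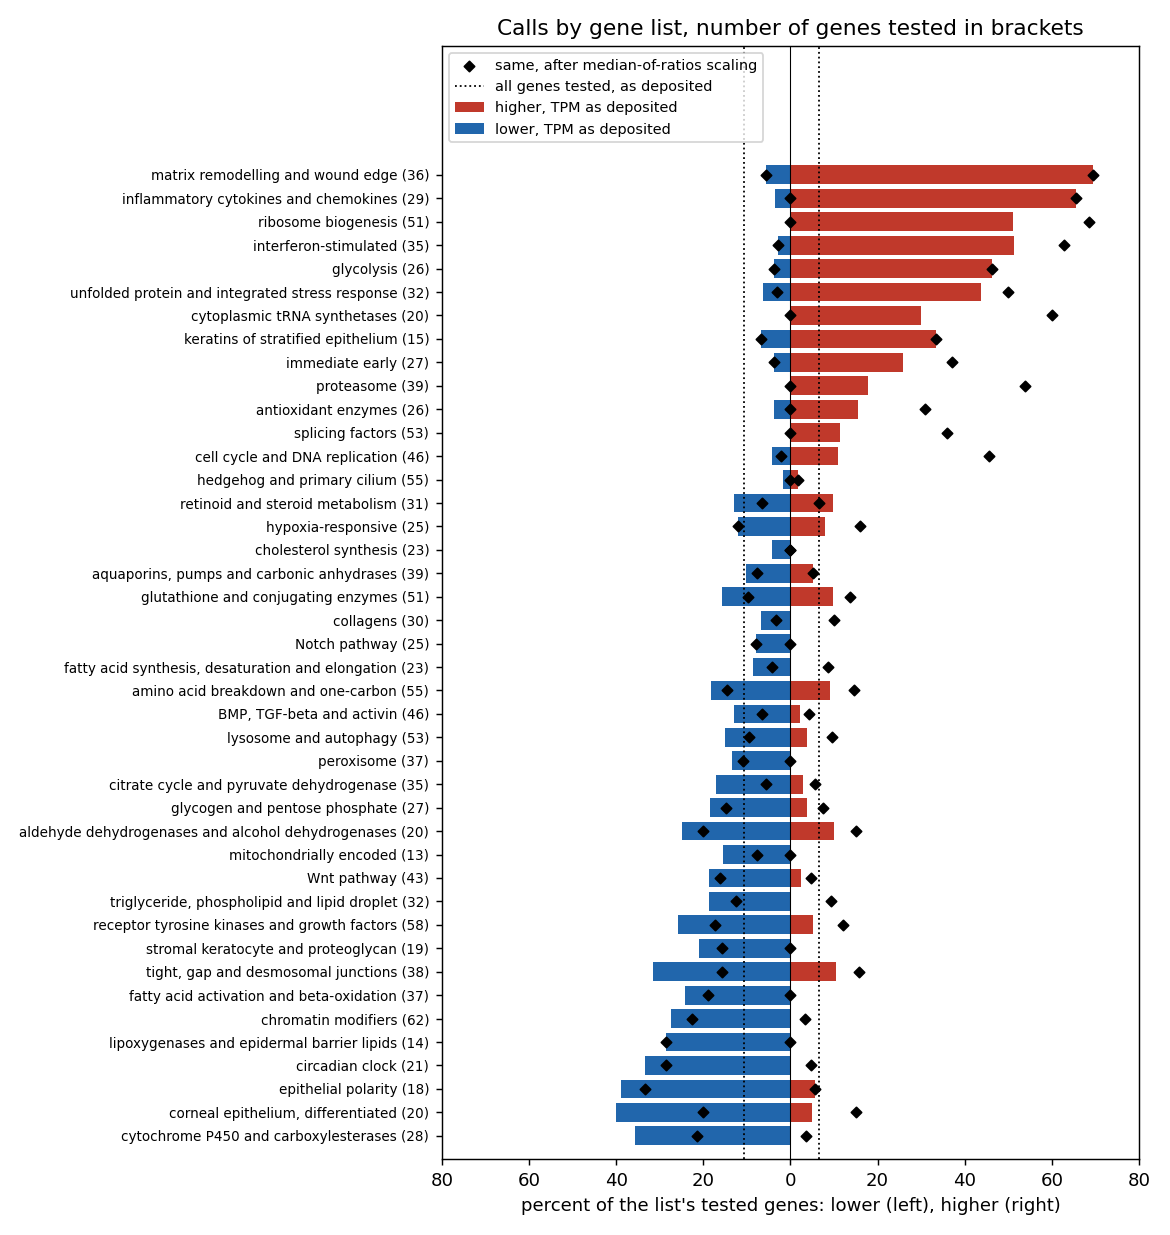
Percent of the tested genes of each list shown called lower (blue, left) or higher (red, right) with TPM as deposited; black diamonds give the percent after median-of-ratios scaling and dotted lines the shares of all 14412 genes, 10.7% lower and 6.61% higher. Polarity, differentiated epithelium and cytochrome P450 lists reach furthest left, and wound-edge, cytokine, interferon-stimulated and ribosome biogenesis lists furthest right among the lists shown, which leave out markers of immune cells and other tissues.

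Among genes that break fatty acids down several fell and none rose. Of 37 tested genes of fatty acid activation and beta-oxidation 9 were lower (24.3%) and 0 higher, with 33 negative values, and 7 were lower after scaling. The median was -0.71, or -0.38 without wounded replicate 1 and -0.95 without wounded replicate 2. Acsl1, which activates long-chain fatty acids, had 146 and 159 TPM in unwounded and 25.3 and 58.1 TPM in wounded corneas (log2 -1.96, SE 0.36, limma adjusted p = 0.0226). Cpt1a, the gate for their entry into mitochondria, went from 30.1 and 36.3 to 10.8 and 10.9 TPM (log2 -1.53). Acadm, the medium-chain dehydrogenase, had 185 and 167 and 36.2 and 62.9 TPM (log2 -1.86). The 3 genes act at different steps of one pathway. Peroxisome genes were lower in 5 of 37 cases (13.5%) and higher in 0, a share near that of all genes, with a median of -0.60. Among them were Crot, which exports shortened acyl chains, from 104 and 102 to 18.3 and 37.2 TPM, and Abcd3, a transporter of the peroxisomal membrane, from 69.5 and 70.7 to 15.9 and 28.8 TPM. Ppara, the receptor that drives fatty acid oxidation genes, was low. It had 2.49 and 3.51 TPM in unwounded and 0.03 and 0.44 TPM in wounded corneas (log2 -1.70, limma adjusted p = 0.03). Since it passed the filter only through the unwounded libraries, its groups had to differ.

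Lipid mediators and membrane lipids were also touched. Of 14 tested lipoxygenase and barrier lipid genes 4 were lower and 0 higher, the same 4 after scaling. Alox15, whose products include lipid mediators that end inflammation, went from 25.2 and 22.1 to 2.44 and 2.12 TPM, a fall of 2.91 (SE 0.37, limma adjusted p = 0.011). Alox12 went from 26.6 and 29.0 to 5.33 and 7.82 TPM, and Sdr9c7, a dehydrogenase of skin barrier lipids, from 17.2 and 21.4 to 4.52 and 9.07 TPM. In the triglyceride and phospholipid list 6 of 32 were lower and 0 higher as deposited, and 4 lower and 3 higher after scaling. The falls were led by Lpin2, a phosphatidate phosphatase, from 83.9 and 85.6 to 24.8 and 20.01 TPM (log2 -1.88). The median of that list, -0.09, lay above that of all genes. Cholesterol synthesis and fatty acid synthesis stood near the background, with 1 of 23 lower in the former and 2 of 23 in the latter, Elovl6 and Hacd2. Neither list had a member that rose as deposited, and after scaling 2 fatty acid synthesis genes were higher.

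Of 28 cytochrome P450 and carboxylesterase genes 10 were lower (35.7%) and 0 higher, with a median of -0.65; after scaling 6 were lower and 1 higher. Cyp2a5, an enzyme of xenobiotic oxidation, had 30.6 and 16.3 TPM in unwounded and 1.64 and 2.22 TPM in wounded corneas (log2 -3.0, SE 0.40, limma adjusted p = 0.0125). Cyp26b1, which breaks down retinoic acid, went from 28.4 and 45.9 to 6.07 and 5.19 TPM (log2 -2.49). The carboxylesterase Ces2f went from 33.4 and 34.9 to 6.62 and 8.31 TPM. Reads of Cyp4a12a and Cyp4a12b, and of the Ces1 genes, can be shared between near-identical copies, so their falls are uncertain gene by gene. Alcohol dehydrogenases lost much transcript: Adh7, which oxidises retinol and aldehyde products, had 515 and 473 TPM in unwounded and 15.03 and 113 TPM in wounded corneas, and Adh1 1513 and 1277 and 123 and 423 TPM, not past the threshold after scaling (adjusted p = 0.0669). In that list 5 of 20 were lower and 2 higher. In the list of retinoid and steroid metabolism 4 of 31 were lower (12.9%) and 3 higher (9.68%), near the shares of all genes. The retinaldehyde dehydrogenases split: Aldh1a1 fell from 160.03 and 129 to 33.9 and 38.7 TPM (log2 -1.96, limma adjusted p = 0.00714), and Aldh1a3 rose from 87.8 and 86.5 to 635 and 309 TPM (log2 2.33, limma adjusted p = 0.0134).

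Conjugating and antioxidant enzymes went both ways. Of 51 glutathione and conjugating genes 8 were lower and 5 higher (15.7% and 9.80%). Fmo5, a flavin monooxygenase, went from 23.3 and 20.8 to 1.03 and 2.67 TPM (log2 -3.07). Akr1b8, an aldo-keto reductase, rose from 6.51 and 5.0 to 352 and 195 TPM (log2 5.29, SE 0.42, limma adjusted p = 0.00409), while its close relative Akr1b7 fell from 304 and 350.4 to 14.6 and 70.8 TPM (log2 -3.29). Of 26 antioxidant genes 4 rose and 1 fell. Hmox1, haem oxygenase, rose from 3.54 and 6.18 to 130.3 and 35.7 TPM, Sod3 from 29.03 and 22.3 to 232 and 94.1 TPM and Txn1, thioredoxin, from 518 and 435 to 1444 and 1155 TPM. Selenop, a selenium carrier, was the one that fell, by 0.89, and it did not pass after scaling (adjusted p = 0.135).

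Many glycolysis genes rose and several glycogen genes fell. Of 26 glycolysis genes 12 rose (46.2% against 6.61% of all genes) and 1 fell, with a median of 0.65. That median was 0.32 without wounded replicate 1 and 1.06 without wounded replicate 2. Pkm, pyruvate kinase, had 279.7 and 403 TPM in unwounded and 1427 and 1037 TPM in wounded corneas (log2 1.86, SE 0.26, limma adjusted p = 0.0133), and Gapdh 893 and 1086 and 2852 and 2444 TPM. Slc16a3, the lactate exporter, rose from 1.73 and 6.0 to 124 and 25.4 TPM, highest in wounded replicate 1, the library with the high neutrophil sum. The one that fell was Pfkfb2, a kinase that makes an activator of phosphofructokinase, from 19.03 and 30.8 to 3.59 and 5.65 TPM. In the glycogen and pentose phosphate list 5 of 27 were lower (18.5% against 10.7% of all genes) and 1 higher. The lower ones were genes of glycogen. Gyg, glycogenin, which primes glycogen, had 318 and 319.6 TPM in unwounded and 57.4 and 113 TPM in wounded corneas (log2 -1.97). Pygl, the phosphorylase that breaks glycogen down, went from 80.4 and 85.8 to 19.7 and 24.3 TPM (log2 -1.88, SE 0.22, limma adjusted p = 0.00943). Ppp1r3c, which targets a phosphatase to glycogen, went from 250.04 and 231 to 12.9 and 57.5 TPM (log2 -3.08). Genes of making and of breaking glycogen thus fell side by side. The gene that rose was Pgm1.

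In the list of the citrate cycle and pyruvate dehydrogenase 6 of 35 were lower (17.1% against 10.7% of all genes) and 1 higher. After scaling 2 were lower, Pdk2 and Pdhx. Pdhx, a structural subunit of the dehydrogenase, had 34.4 and 31.8 TPM in unwounded and 8.01 and 13.5 TPM in wounded corneas, and Pdk2, the kinase that switches it off, 48.03 and 49.3 and 10.2 and 21.8 TPM. The one that rose was Mdh2. Of 13 mitochondrially encoded transcripts 12 had negative values and 2 were called lower, mt-Nd5 (log2 -1.62) and mt-Co1 (log2 -1.15), the latter not after scaling (adjusted p = 0.146). Nuclear subunits of complex I, whose symbols begin with Nduf, had a median of 0.11, or -0.07 without wounded replicate 2, and of 38 tested 1 rose, Ndufa12, and 0 fell. Nuclear subunits of complexes III to V had a median of -0.07, with 1 of 41 lower. The difference from the mitochondrial transcripts was not tested. In amino acid breakdown and one-carbon metabolism 10 of 55 were lower (18.2%) and 5 higher (9.09%). Cdo1, which commits cysteine to taurine, was the largest fall, and Slc6a6, the taurine transporter, fell too, from 134 and 168 to 26.96 and 52.5 TPM. Rising members were Arg2, Mthfd2, Shmt2, Ethe1 and Ahcy; Mthfd2, a mitochondrial one-carbon enzyme, went from 4.52 and 6.48 to 33.7 and 16.9 TPM (log2 1.96).

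Membrane transporters were lower more often than higher. Of 248 solute carriers 31 were lower (12.5%) and 5 higher (2.02%), with a median of -0.48 and 187 negative values; after scaling 26 were lower and 12 higher. The share that fell is near that of all genes, and the share that rose is below it. Slc28a3, a nucleoside carrier, had 59.5 and 69.1 TPM in unwounded and 1.81 and 5.15 TPM in wounded corneas (log2 -3.97, SE 0.38, limma adjusted p = 0.00672). Slc13a2, a citrate carrier, went from 26.8 and 25.6 to 0.14 and 1.23 TPM. The 5 that rose were Slc15a3, Slc16a3, Slc7a5, Slc1a5 and Slc39a7; Slc7a5 and Slc1a5 are carriers of large neutral amino acids and glutamine. Of 32 ABC transporter genes 6 were lower (18.8% against 10.7% of all genes) and 0 higher. Among those that fell was Abcg1, a cholesterol exporter, from 30.2 and 32.6 to 4.24 and 11.4 TPM. In the list of aquaporins, pumps and carbonic anhydrases 4 of 39 were lower (10.3%) and 2 higher (5.13%), near the shares of all genes. Slc12a2, the sodium-potassium-chloride cotransporter of fluid secretion, went from 108 and 104 to 23.01 and 32.9 TPM, and Fxyd5, a regulator of the sodium pump, rose from 15.01 and 8.60 to 260.03 and 126 TPM. Aqp5, the apical water channel of the cornea, showed no call (log2 0.19, limma adjusted p = 0.662).

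Of 63 genes with symbols beginning Rab, most of them GTPases of vesicle traffic, 11 were lower (17.5% against 10.7% of all genes) and 7 higher (11.1% against 6.61%). Besides Rab17 the falls included Rab27b, of secretory granules, from 70.7 and 74.98 to 16.9 and 29.6 TPM. Rab20 and Rab31 rose, the former from 2.01 and 1.91 to 27.6 and 12.5 TPM. Of 56 glycosyltransferase genes 8 were lower (14.3%) and 2 higher (3.57%), the former near the share of all genes. St6galnac1, which caps mucin sugars with sialic acid, had 212 and 207 TPM in unwounded and 14.7 and 56.8 TPM in wounded corneas (log2 -2.80), and Galnt4, which starts mucin-type chains, 60.9 and 64.8 and 8.95 and 19.6 TPM. The 2 that rose were B3galt5 and Galnt6. Of the conjunctiva list 2 of 12 (16.7%) fell, Muc20, a membrane mucin, from 139 and 132 to 6.84 and 41.9 TPM, and Pigr, which carries antibodies to the tear side, from 9.12 and 8.64 to 0.03 and 0.42 TPM. The goblet cell mucin Muc5ac was at 0.13 TPM or less in each library. Krt13, also taken as a conjunctival marker, had 2191 and 1731 TPM in unwounded and 628 and 1862 TPM in wounded corneas.

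Among growth factors and their receptors, mostly receptors fell and the 3 genes that rose were ligands. In the list of receptor tyrosine kinases and growth factors 15 of 58 were lower (25.9%) and 3 higher, with a median of -0.57, and 10 lower and 7 higher after scaling. Kit, the receptor of stem cell factor, went from 42.6 and 46.3 to 4.82 and 14.4 TPM (log2 -2.26, SE 0.47, limma adjusted p = 0.0291). Erbb2, Erbb3, Insr and Fgfr3 were among the other receptors that fell. The rises included Areg, an EGF-receptor ligand, from 11.9 and 13.7 to 73.1 and 73.7 TPM (log2 2.44), and Nrg1, neuregulin, from 7.99 and 8.56 to 60.8 and 28.9 TPM (log2 2.21). Not every ligand rose, since Egf and Btc, which share a receptor with Areg, fell by 1.17 and 1.86. Ngfr, a neurotrophin receptor, fell from 17.4 and 15.7 to 4.41 and 6.32 TPM.

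Of 43 Wnt pathway genes 8 were lower (18.6%) and 1 higher, Wnt9a, with a median of -0.66. Wnt6 went from 13.8 and 13.1 to 1.52 and 3.14 TPM (log2 -2.16), Wnt2b from 4.24 and 5.76 to 0.46 and 0.93 TPM, and the R-spondin receptor gene Lgr4 from 22.1 and 26.1 to 4.35 and 8.07 TPM. The secreted antagonist gene Sfrp2 fell as well, from 16.2 and 7.79 to 2.21 and 2.40 TPM. In BMP, TGF-beta and activin signalling 6 of 46 were lower, a share near that of all genes, and 1 higher. After scaling 3 of that list were lower and 2 higher. Id2, a target that BMP signals induce, had 234 and 232 TPM in unwounded and 29.5 and 81.8 TPM in wounded corneas (log2 -2.22), and Tgfb1 rose from 15.04 and 16.5 to 73.9 and 40.4 TPM (log2 1.73). Of 25 Notch pathway genes 2 fell, Numb and Notch3, a share of 8.0%, below that of all genes. Hypoxia-responsive genes split, with 3 lower and 2 higher of 25, shares near those of all genes. Their median was 0.57, above that of all genes, with 8 negative values. After scaling 3 were lower and 4 higher. Epas1, the HIF-2 alpha subunit, went from 121 and 129 to 16.4 and 23.4 TPM (log2 -2.62, SE 0.30, limma adjusted p = 0.00912) and the prolyl hydroxylase Egln3 from 545 and 522 to 83.2 and 187 TPM. Adm, adrenomedullin, rose from 4.16 and 3.12 to 194 and 23.5 TPM, higher in wounded replicate 1 than in replicate 2.

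Several chromatin modifiers fell and, as deposited, none rose. Of 62 chromatin modifier genes 17 were lower (27.4%), 0 higher as deposited and 14 lower after scaling, when 2 were higher; their median was -0.53. Setd7, a lysine methyltransferase (ENSMUSG00000037111, chromosome 3, 51515319 to 51560879, minus strand) was at 47.6 and 45.6 TPM without a wound and 7.52 and 11.2 TPM with one, a fall of 2.22 (SE 0.28, limma adjusted p = 0.011). Kdm6a, which removes a repressive histone mark, went from 23.2 and 16.9 to 3.37 and 4.65 TPM (log2 -2.07). Tet3, which oxidises methylated cytosine, went from 23.2 and 26.5 to 6.21 and 7.94 TPM (log2 -1.68). Writers of active marks fell as well: Kat6b by 1.72, the acetyltransferase Ep300 by 1.48 and the methyltransferase Kmt2a by 1.31. The list holds long genes: its median exonic length was 8980 bases against 4380 over all tested protein-coding genes. In the longest of 4 length classes of genes 17.3% were lower, with a median of -0.55. At 20 to 100 TPM 30.3% of that class were lower. The part of length in the values of the list was not tested.

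Of 21 circadian clock genes 7 were lower (33.3%) and 0 higher as deposited, 6 lower and 1 higher after scaling, with a median of -0.87. The clock is a daily feedback loop in which Clock and Arntl activate genes through E-boxes, Per and Cry proteins repress them, and Nr1d and Ror receptors and the output factors Dbp, Tef and Hlf add further arms. The output arm carried the largest fall. Hlf (ENSMUSG00000003949, chromosome 11, 90336536 to 90390895, minus strand) was at 102 and 120.5 TPM without a wound and 7.30 and 22.2 TPM with one, a fall of 3.01 (SE 0.45, limma adjusted p = 0.0159). Tef went from 45.6 and 45.3 to 7.75 and 15.7 TPM (log2 -1.94), and Dbp, at 39.3 and 27.8 and 16.5 and 12.1 TPM, did not pass (adjusted p = 0.0754). In the receptor arm Nr1d1 went from 69.2 and 51.4 to 19.4 and 16.9 TPM, Nr1d2 from 34.4 and 32.9 to 6.10 and 11.3 TPM and Rora from 18.3 and 24.01 to 5.89 and 7.31 TPM. Clock fell by 1.42, whereas its partner Arntl had 23.6 and 31.6 and 17.4 and 19.6 TPM and did not pass (adjusted p = 0.216). Among the repressors Cry2 fell by 1.08 and Cry1, Per1, Per2 and Per3 did not pass. Nfil3, which opposes Dbp, Tef and Hlf, had a value of 1.22 (adjusted p = 0.238). The time of day at which each group was taken is not given in the labels, so wounding and clock time cannot be told apart here.

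Genes with Zfp symbols, most of them C2H2 zinc finger proteins, the largest class of mammalian DNA-binding proteins, were lower on the whole. Of 328 tested 51 were lower (15.5%) and 1 higher, Zfp593, and 298 had negative values. The median was -0.73, and -0.52 after scaling, with 39 lower and 3 higher. Both wounded libraries lay below both unwounded ones in 264 of the genes (80.5%), against 47.4% of all genes. These are weakly expressed, with a median of 6.16 TPM in unwounded cornea against 13.3 TPM over all genes, and they were also set against other genes at matched level. At 20 to 100 TPM 40.0% of 30 Zfp genes were lower against 16.8% of other genes, and at 5 to 20 TPM 20.5% against 8.86%. At 1 to 5 TPM the shares were 3.82% and 4.0%, with medians of -0.70 and -0.31. By class of exonic length the Zfp genes had medians of -0.62 against 0.02 in the shortest of 4 length classes of genes and -0.84 against -0.53 in the longest. Zfp973 had 5.39 and 6.07 TPM in unwounded and 0.63 and 0.34 TPM in wounded corneas (log2 -2.19, SE 0.34, limma adjusted p = 0.0173). It passed the filter only through the unwounded libraries, so its groups had to differ. Zfp871 had 6.48 and 11.3 TPM in unwounded and 0.96 and 1.45 TPM in wounded corneas. Many Zfp genes lie in clusters of similar copies, so reads may be shared between neighbours.

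**Figure D4:**
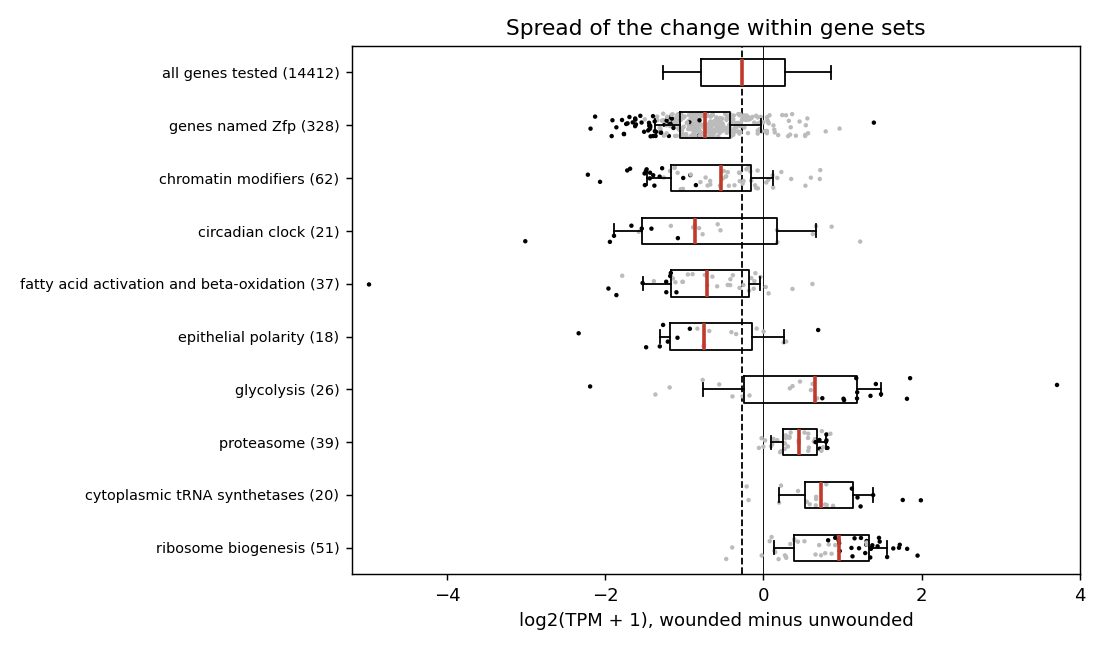
Difference of mean log2(TPM + 1), wounded minus unwounded, for the genes of 9 sets and for all 14412 genes. Boxes span the quartiles with the median in red and whiskers the 10th to 90th percentiles, points are single genes (black where called), and the dashed line is the median of all genes, -0.27; Zfp, chromatin and clock medians lie left of it, at -0.73, -0.53 and -0.87, and ribosome biogenesis furthest right, at 0.95.

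In lysosome and autophagy genes 8 of 53 were lower (15.1% against 10.7% of all genes) and 2 higher (3.77%). The autophagy kinase genes Ulk1 and Ulk2 fell, Ulk2 from 10.8 and 12.2 to 2.97 and 3.91 TPM, while the cathepsin gene Ctss rose from 35.4 and 30.5 to 124 and 155 TPM (log2 2.04). Cilium and hedgehog genes gave 1 lower, Bbs4, and 1 higher, Ift43, of 55, although 45 had negative values. In the stroma 4 of 19 keratocyte and proteoglycan genes were lower (21.1%) and 0 higher, with a median of -0.82. Kera, keratocan, had 367 and 304 TPM in unwounded and 55.7 and 95.9 TPM in wounded corneas, a fall of 2.18 (limma adjusted p = 0.0265), and Omd, osteomodulin, went from 28.5 and 16.5 to 2.41 and 5.82 TPM, whereas Lum, lumican, had 544 and 327 and 294 and 316 TPM (log2 -0.47, adjusted p = 0.276). Stromal tissue was among what the surgery removed, and the part of that in these values was not tested. Of 30 collagen genes 2 fell, Col4a3 and Col11a2, and 0 rose.

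Of 51 genes of ribosome biogenesis, the making of the machinery that synthesises protein, 26 rose (51.0% against 6.61% of all genes) and 0 fell, with a median of 0.95, and after scaling 35 rose. Nop56, of the complex that modifies ribosomal RNA (chromosome 2, 130274430 to 130279313, plus strand), had 33.2 and 36.3 TPM in unwounded and 119.7 and 114 TPM in wounded corneas, a rise of 1.72 (SE 0.17, limma adjusted p = 0.00676). Npm1, nucleophosmin, went from 253 and 229 to 604 and 627 TPM, Ncl, nucleolin, from 103 and 116 to 301 and 245 TPM and Fbl, fibrillarin, from 55.8 and 61.6 to 183 and 145 TPM. Myc, which drives such genes, rose from 13.6 and 12.9 to 63.4 and 33.04 TPM. Host genes of small nucleolar RNAs, which guide that modification, rose in 4 of 12 cases and 0 fell, with Snhg5 going from 9.77 and 9.42 to 29.3 and 28.1 TPM. Mitochondrial ribosomal proteins rose in 15 of 78 and cytosolic ones in 13 of 81, both above the share of all genes, and 0 fell in either. After scaling 25 and 12 rose, against 11.2% of all genes. Of the 13 cytosolic calls 10 were kept. Of 52 translation initiation factor genes 8 rose and 2 fell.

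Of 20 cytoplasmic tRNA synthetase genes, which load amino acids on tRNA, 6 rose and 0 fell, and after scaling 12 rose. Cars went from 16.5 and 18.3 to 102 and 50.6 TPM (log2 1.99), Mars from 19.3 and 23.2 to 79.8 and 68.8 TPM and Gars from 41.1 and 44.9 to 125 and 83.4 TPM (log2 1.23, SE 0.24, limma adjusted p = 0.0255). In the list of the unfolded protein and integrated stress response 14 of 32 rose (43.8%) and 2 fell (6.25%). Asns, asparagine synthetase, rose from 3.98 and 5.52 to 64.7 and 24.6 TPM (log2 2.85) and Hspa5, the main chaperone of the endoplasmic reticulum, from 249.7 and 234 to 453 and 422 TPM. Chac1, a glutathione-degrading enzyme that the same stress pathway induces, went the other way, from 108 and 98.3 to 25.3 and 38.7 TPM, a fall of 1.69 (SE 0.25, limma adjusted p = 0.0147), and Sel1l fell too. Proteasome genes rose in 7 of 39 cases (17.9%) and splicing factors in 6 of 53 (11.3%), with 0 falls in both. After scaling 21 and 19 rose, against 11.2% of all genes. Psmb4, a core subunit gene, went from 187 and 182 to 338 and 311 TPM.

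Among the most abundant rises were genes of the activated epidermal type of epithelium. Krt14, a basal keratin (chromosome 11, 100203162 to 100207548, minus strand), was the most abundant of all rising genes, from 539.6 and 425 to 13240.2 and 9970.4 TPM, and Krt6a, a keratin of wound edges, rose from 3144 and 2697 to 9319 and 9236 TPM (log2 1.67). Fabp5, the epidermal fatty acid-binding protein, rose from 224 and 225 to 3242 and 2429 TPM (log2 3.64, SE 0.21, limma adjusted p = 0.00148), and Sfn, stratifin, from 1150.2 and 988 to 3685 and 3680.4 TPM. The metallothionein genes Mt1 and Mt2, which bind zinc and copper, rose by 2.48 and 2.33, each with more in wounded replicate 1 than in replicate 2; reads of these short, similar genes may be shared. Krt78 was the keratin that fell, from 49.3 and 43.7 to 1.94 and 10.2 TPM.

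A few genes of the inflammatory, wound, immediate early and monocyte lists, and of the chemokine and interleukin families, fell. Irf1, Ccl21a, Il1f5, Il17c, Il18, Cx3cl1, Fosl2 and Timp3 were chosen after their values were seen. Irf1, an interferon regulatory factor, had 178 and 165 TPM in unwounded and 28.8 and 80.6 TPM in wounded corneas, a fall of 1.81 (SE 0.45, limma adjusted p = 0.041), while 18 of 35 interferon-stimulated genes rose. Itgam, the alpha chain of a leukocyte integrin, fell from 72.6 and 77.8 to 17.5 and 17.4 TPM (log2 -2.05, SE 0.22, limma adjusted p = 0.00794). Its beta chain Itgb2 rose from 1.03 and 0.77 to 26.4 and 10.7 TPM, and 13 of 21 monocyte and macrophage genes rose. In unwounded cornea Itgam stood far above Itgb2, and which cells held it was not tested. Ccl21a, a lymph vessel chemokine with near-identical copies in mice, fell from 42.7 and 38.8 to 5.60 and 4.88 TPM. The epithelial cytokine genes Il1f5, an antagonist of the IL-36 receptor, and Il17c fell by 2.83 and 2.40. Il18 fell by 0.86 and Cx3cl1 by 1.47, neither past the threshold after scaling (adjusted p = 0.102 and 0.0525). Ifit1bl1, a relative of Ifit1, was among the abundant falls, from 839.96 and 690.4 to 91.4 and 307 TPM, while Ifit1 rose from 7.14 and 6.57 to 106 and 174 TPM. Fosl2 fell from 108 and 106 to 42.3 and 41.3 TPM while its relative Fosl1 rose from 0.26 and 0.34 to 50.7 and 31.5 TPM, and Timp3 fell from 113 and 109.9 to 32.9 and 54.97 TPM while Timp1 rose from 7.08 and 4.75 to 1994 and 481 TPM.

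Promoter sequence was compared between genes that fell and genes that rose, over 300 bases from 250 before to 50 after a RefSeq transcription start (GRCm38.p6). Of 13321 tested protein-coding symbols 10427 had such a promoter, and the most upstream was used. Of 17 motifs searched on both strands, the ETS motif CCGGAAG differed most between genes that fell and all tested genes in percentage points, in 12.2% of the 1125 promoters of genes called lower against 17.7% of tested promoters and 9.14% of all 27025 promoters of the table. Genes called higher, with 705 promoters, had it in 17.2%. The E-box CACGTG was in 9.33% of lower, 8.65% of higher, 9.93% of tested and 7.24% of all promoters. The amino acid response element TGATGNAAN was in 2.49%, 4.82%, 2.29% and 4.04% of them, the interferon-stimulated response element (TTTC, any 2 bases, TTTC) in 2.22%, 8.23%, 3.15% and 3.49%, and the NF-kB motif (GGGA, any base, TTTCC) in 0.356%, 1.84%, 0.441% and 0.389%. AP-1 (TGANTCA) was in 5.24% of lower and 9.93% of higher against 5.20% of tested promoters, and the TATA box TATAAA in 7.82% and 14.0% against 7.35%. The GC box GGGCGG was in 65.6% of lower and 54.8% of higher against 63.7% of tested promoters, and the D-box TTATGTAA, which Dbp, Tef and Hlf bind, in 0.622% and 0.709% against 0.489%. The remaining motifs were the cAMP response element TGACGTCA, the ROR element TAGGTCA, the CCAAT box, the xenobiotic core GCGTG, the KLF motif CCACACCC, the MYB core AACNGTTA, the PPAR direct repeat and a p63-type site, and they differed by less than 1 percentage point between lower and tested promoters. Some overlap, as GCGTG and CACGTG may share bases. Median GC content was 62.0% for lower, 57.7% for higher and 60.7% for all tested promoters. Some small lists had larger motif shares than tested promoters. CACGTG was in 5 of 17 clock (29.4%), 4 of 12 tRNA synthetase (33.3%) and 10 of 44 ribosome biogenesis promoters (22.7%), against 9.93%. It was thus not particular to the clock. TGATGNAAN was in 5 of 12 tRNA synthetase promoters (41.7%) against 2.29%. The interferon-stimulated response element was in 15 of 25 interferon-stimulated promoters (60.0%) against 3.15%. The NF-kB motif was in 5 of 19 cytokine promoters (26.3%) against 0.441%. One promoter for each of these motifs is printed, so that the motif can be seen in place. They are those of Tef, which fell, and of Gars, Ifit1 and Cxcl3, which rose. All 4 lie on the plus strand, at chr15:81802423-81802722 for Tef, chr6:55037751-55038050 for Gars, chr19:34640639-34640938 for Ifit1 and chr5:90785851-90786150 for Cxcl3. Capitals mark the matches to CACGTG in Tef, TGATGNAAN in Gars, the interferon-stimulated response element in Ifit1 and the NF-kB motif in Cxcl3.
Tef: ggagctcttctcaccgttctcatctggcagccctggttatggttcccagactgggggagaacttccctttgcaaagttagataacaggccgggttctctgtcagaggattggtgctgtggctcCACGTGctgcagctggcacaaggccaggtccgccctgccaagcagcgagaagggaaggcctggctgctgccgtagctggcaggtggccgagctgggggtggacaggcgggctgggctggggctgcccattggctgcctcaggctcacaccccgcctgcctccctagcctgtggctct
Gars: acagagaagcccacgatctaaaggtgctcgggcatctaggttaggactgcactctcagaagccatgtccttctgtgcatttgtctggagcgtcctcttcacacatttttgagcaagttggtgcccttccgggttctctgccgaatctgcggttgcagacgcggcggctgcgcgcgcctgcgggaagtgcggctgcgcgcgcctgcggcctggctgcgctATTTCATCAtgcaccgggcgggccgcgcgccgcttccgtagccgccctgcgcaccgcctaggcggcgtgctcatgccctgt
Ifit1: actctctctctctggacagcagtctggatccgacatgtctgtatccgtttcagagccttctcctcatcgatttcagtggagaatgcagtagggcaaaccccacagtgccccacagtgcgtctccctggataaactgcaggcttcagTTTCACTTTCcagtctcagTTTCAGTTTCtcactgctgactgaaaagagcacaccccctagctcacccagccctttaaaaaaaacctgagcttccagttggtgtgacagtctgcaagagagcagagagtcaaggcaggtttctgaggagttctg
Cxcl3: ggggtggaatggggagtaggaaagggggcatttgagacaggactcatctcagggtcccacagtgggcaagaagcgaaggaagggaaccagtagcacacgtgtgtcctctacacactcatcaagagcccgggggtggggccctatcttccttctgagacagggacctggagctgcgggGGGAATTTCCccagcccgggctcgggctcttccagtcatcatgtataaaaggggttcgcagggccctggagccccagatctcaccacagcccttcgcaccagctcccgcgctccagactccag
The matches begin 127 bases before the start in Tef, 31 before it in Gars (on the opposite strand), 104 and 85 before it in Ifit1 and 73 before it in Cxcl3. A match is a run of letters and says nothing of binding, and genes without one may carry it outside the window.

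Longer genes were lower more often. The 13328 tested protein-coding genes were ordered by exonic length, the union of a gene's exons in GENCODE M21, and split into 4 classes of 3332. In the shortest class, 204 to 2732 bases, 6.42% were lower and 11.7% higher, and the median change was 0.01. In the classes above it 8.67%, 11.6% and 17.3% were lower and 8.43%, 4.68% and 2.25% higher, with a median of -0.55 in the longest, 6778 to 41324 bases. Ordering by genomic span gave nearly the same shares, 5.73% lower in the shortest and 17.6% in the longest class. The gradient was also seen at matched level: at 20 to 100 TPM 6.80% of the shortest and 30.3% of the longest genes were lower, and at 5 to 20 TPM 5.10% and 13%. Each wounded library showed the gradient, with medians from -0.07 to -0.63 in replicate 1 and from 0.10 to -0.47 in replicate 2 between the shortest and the longest class. The wounded replicates differed from each other by 0.16 and 0.15 in those classes, with no gradient. The unwounded replicates had one of their own, with replicate 2 at -0.04 relative to replicate 1 in the shortest and 0.16 in the longest class. The RNase III libraries went from -0.14 to -0.39 and from -0.05 to -0.18, a shallower course. Chromatin modifiers, with a median exonic length of 8980 bases, sit in the long class, and proteasome genes, with 2820 bases, near the short one. The labels give no measure of RNA integrity, and its part in the gradient was not tested.

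**Figure D5:**
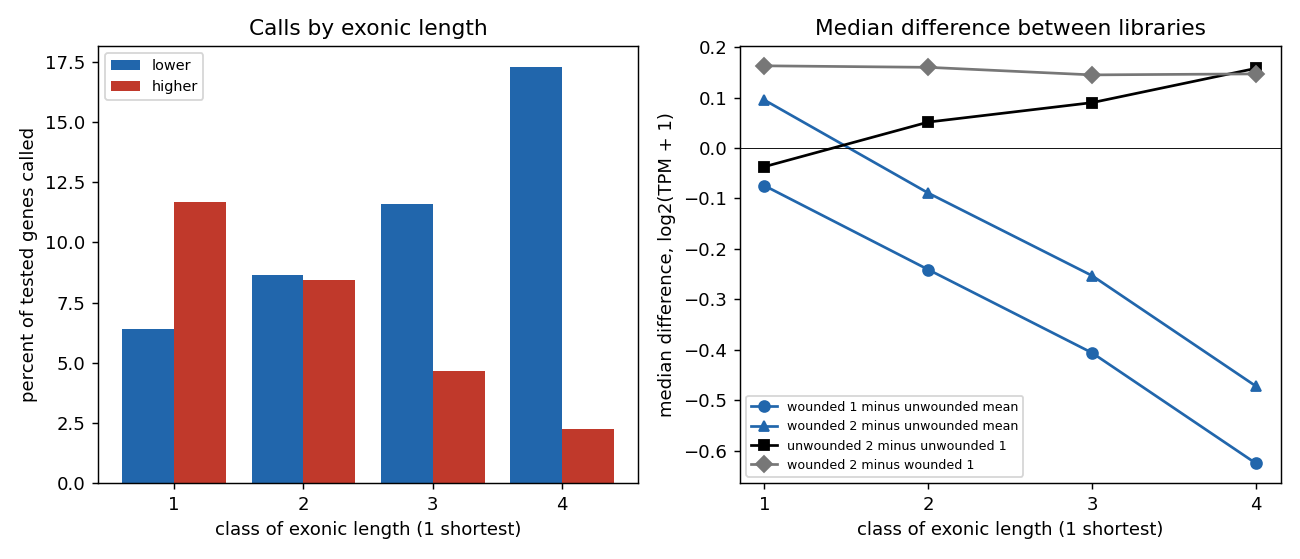
Left, percent of tested protein-coding genes called lower (blue) or higher (red) in each class of exonic length, 3332 genes a class. Right, median difference in log2(TPM + 1) per class for each wounded library against the mean of the unwounded libraries (blue) and between replicates of a group (black and grey); both blue lines fall with length, and the black line of the unwounded replicates rises from -0.04 to 0.16.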

How the data were processed

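RNA was extracted from corneas with a column kit and sequenced from standard Illumina libraries, per the labels' protocols. A single table was deposited, in which the authors give TPM for 54446 gene rows. Per the submitters' processing notes STAR, RSEM, DESeq2 and mm10 were involved, with no role or version stated, and no source used here gives the strandedness of counting. TPM keeps no read depth, so depth is unknown and no counting error or detection limit can be given. Groups came from the sample titles.

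Genes that reached 1 TPM in 2 or more of the 4 libraries were kept. Values were transformed as log2(TPM + 1) with a pseudocount of 1 and fitted with a group-means model over all 6 libraries in limma 3.58.1 (R 4.3.3), with a mean-variance trend, 3 residual degrees of freedom and on average 3.69 prior ones. Tests were two-sided and adjusted by Benjamini-Hochberg over all 14412 genes. An exact permutation of 2 against 2 libraries cannot give a two-sided p below 0.333. The steps were tested on simulated data with independent genes, in 10 runs with 200 changed genes each. Planted changes of 1, 2 and 3 on the log2 scale were called in 2.21%, 43.8% and 68.6% of cases. False calls averaged 2.5 a run. A gene without a call may therefore have changed. Median-of-ratios scaling divides each library by the median ratio of its genes to their geometric means. Of the gene identifiers 54409 matched a symbol, leaving 37 without one. Gene coordinates come from GENCODE M21 on GRCm38. Promoters are those of RefSeq (GRCm38.p6), matched by symbol; 2136 of the matched genes had more than 1.

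The members, the 55 lists and the 36 families matched by symbol were chosen with earlier results of these data known. Lists are described by counts and medians without a test. The naming rule took the 30 largest falls and 15 largest rises past the threshold without overlap between groups, the 20 most abundant genes that fell and 10 that rose, up to 4 members past the threshold of each list (the 2 most abundant where fewer passed) and up to 3 of each family. Predicted models and pseudogenes were left out. A few genes that the rule or a list gives are not reported here. Genes outside this rule were named after their values were seen: Ahcy, Aldh3a1, Apold1, Aqp5, Arntl, Btc, Ccl21a, Cdkn1a, Clock, Crb3, Cry1, Cry2, Csn3, Cx3cl1, Dbp, Dcn, Egf, Ehf, Ep300, Erbb2, Erbb3, Ethe1, Fbl, Fgfr3, Fosl2, Galnt6, Gapdh, Gjb5, Hspa5, Il17c, Il18, Il1f5, Insr, Irf1, Kmt2a, Krt12, Lum, Mdh2, Ncl, Nfil3, Npm1, Pax6, Per1, Per2, Per3, Pgm1, Pkp3, Rab27b, Rora, Sel1l, Shmt2, Slc1a5, Slc39a7, Slc4a11, Slc6a6, Slc7a5, Timp3, Ulk1, Wincr1, Wnt9a and Zfp593. Alternatives were a filter of 5 TPM, a filter over all 6 libraries, no filter, a pseudocount of 0.1, median-of-ratios scaling, no trend, only the 4 libraries, the replicate number as a block, and each library left out in turn.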

Additional observations from a re-analysis of the deposited data

How the results depend on the processing

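All 1538 lower and 953 higher genes kept their direction under each alternative in which they were fitted. Under a filter of 5 TPM, 1374 and 852 of them were. The filters, the trend, the block, the fit of 4 libraries and leaving out an RNase III library cannot alter the fitted difference. Under the other alternatives genes picked by their call could hardly change sign. Median-of-ratios scaling gave 1618 genes higher and a median change of all genes of -0.01515, and without a filter on low values 203 genes were higher and 295 lower, with a median of -0.1033. With each library left out in turn, between 23 and 1361 genes were higher and between 3 and 2056 lower, and the median change lay between -0.3559 and -0.1799. The lowest counts came from leaving a group of this comparison with 1 library. The other alternatives gave 723 to 1333 genes higher and 1310 to 2052 lower. With the replicate number as a block 774 genes were higher and 1544 lower, of which 733 and 1277 were also called without it. The numbers are only numbers here: deviations of same-numbered libraries from their group means correlated at 0.155 across genes, with 2 pairs. Of 312 named genes, 301 of them called, 36 passed no longer after scaling, 42 with the block, 224 without a filter, 288 and 289 without unwounded replicate 1 and 2, 260 without wounded replicate 1 and 68 without wounded replicate 2. List medians changed sign in 3 of 55 lists after scaling. Except where an alternative leaves fewer libraries or tests more genes, the cause was not tested. Depth is unknown, so genes of low TPM carry an error that cannot be stated. Unequal sampling of iris, retina, blood and muscle between libraries, unknown times and 2 libraries per group limit every value here.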

Other observations

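The count of cell division genes that rose depended on scaling. Of 46 tested genes of the cell cycle and DNA replication, 5 were higher and 2 lower as deposited, and 21 higher and 1 lower after scaling. Their median was 0.67 as deposited, 1.07 without wounded replicate 1 and 0.28 without wounded replicate 2. Mcm3, a subunit of the replicative helicase, rose from 11.7 and 12.2 TPM in unwounded to 32.5 and 67.9 TPM in wounded corneas, and Aurka, a mitotic kinase, from 7.24 and 8.44 to 30.1 and 26.6 TPM. Wounded replicate 2 had more Mcm3 than replicate 1, and less Aurka. Inhibitors of division went both ways, since Cdkn1a rose from 120.2 and 118 to 210.4 and 230.3 TPM while Cdkn1b fell from 82.9 and 88.3 to 32.7 and 41.8 TPM and Cdkn1c from 25.5 and 24.8 to 8.40 and 13.3 TPM, Cdkn1b not past the threshold after scaling (limma adjusted p = 0.11).

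At the other end, 24 genes apart from predicted models were under 1 TPM in both unwounded libraries and at 20 TPM or more in both wounded ones. Chemokine and acute-phase genes made up many of them; Saa3, of the serum amyloid A family with similar copies, was listed at 0 TPM in unwounded replicates 1 and 2 and reached 2369 and 303 TPM in the wounded replicates. Dynap, a membrane protein gene, had 0.19 and 0 and 202 and 86.4 TPM, Csn3, kappa casein of milk, 0.26 and 0.10 and 38.1 and 63.3 TPM, and the long noncoding RNA Wincr1 0.89 and 0.20 and 21.3 and 21.1 TPM. These 3 were chosen after their values were seen. Ppbp, a platelet chemokine, went from 0.23 and 0.52 to 980.2 and 595 TPM.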
